A study of Mus musculus with 27 samples.

Results

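The MHC class I and peptide loading genes were taken as 10 symbols of the 19392 in the expression table: H2-K1, H2-D1, B2m, Tap1, Tap2, Tapbp, Psmb8, Psmb9, Psmb10 and Nlrc5. All 10 were found, each as 1 row, and all 10 passed the filter of values above 0 in at least 3 kidneys. RNA had been sequenced from the left kidneys of 27 wild-type C57BL/6 mice, 3 in each of 9 groups. In the model as the paper describes it, the right kidney was removed and the left renal pedicle clamped. Clamping lasted 16, 18, 20, 22, 24, 26, 28 or 30 min, or 0 min in the sham group. The paper does not describe the surgery of the sham mice separately. Tissue was collected 24 h later in all groups, and no group is labelled as unoperated. The replicates were different mice. Age was not given in the sources used here.

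MHC class I molecules carry short peptides from the inside of a cell to its surface, where CD8 T cells read them. A heavy chain, encoded by H2-K1 or H2-D1 in this strain, pairs with the light chain beta-2 microglobulin, the product of B2m. The peptides are cut by the proteasome. Interferon gamma brings in the subunits Psmb8, Psmb9 and Psmb10, which take the places of Psmb5, Psmb6 and Psmb7 and turn the constitutive proteasome into the immunoproteasome. Tap1 and Tap2 form the pump that moves peptides into the endoplasmic reticulum, and Tapbp encodes tapasin, which holds the heavy chain beside that pump until a peptide is bound. Nlrc5 is the transactivator of class I genes and the relative of Ciita, which does the same for class II genes. In a resting kidney class I is found on endothelium, leukocytes and, at a lower level, tubule cells.

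Of the 10 genes, 7 lie on chromosome 17 in or beside the mouse MHC (RefSeq, GRCm38.p6, the build named in the submitters' processing notes). H2-K1 is at chr17:33996012-34000619 and Tapbp at chr17:33919478-33929290. Psmb9, Tap1, Psmb8 and Tap2 follow each other within 34292 bases, at chr17:34182030-34216321, and Psmb9 and Tap1 point away from each other with 225 bases between their starts. H2-D1 is farther on, at chr17:35263094-35267497. B2m is on another chromosome (chr2:122147687-122153082), and Psmb10 (chr8:105935728-105938392) and Nlrc5 (chr8:94434335-94527272) are both on chromosome 8. The annotated span of B2m overlaps that of Patl2, Tapbp that of Gm19412, and Nlrc5 those of 3 other genes, and whether the reads were counted by strand was not given in the sources used here. H2-K1, H2-D1 and the class Ib genes are close copies of each other, so reads could be shared among them.

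The DNA just before the starts of these genes is shown for 5 of them, so that the class I chains can be set beside 2 of the genes that supply them with peptides. Each line gives the 250 bases before the start of transcription in RefSeq, 5′ to 3′ on the strand of the gene. Capitals mark matches to the CRE core (TGACG, the core of the X2 box of class I and class II promoters), to the CCAAT box on either strand (CCAAT or, reversed, ATTGG), to the core of the interferon-stimulated response element (GAAANNGAAA) and to the gamma-activated site (TTCNNNGAA). All were searched on both strands, and no match in a gene overlapped another.
H2-K1 (chr17:34000348-34000597, minus strand, the first of 2 listed starts): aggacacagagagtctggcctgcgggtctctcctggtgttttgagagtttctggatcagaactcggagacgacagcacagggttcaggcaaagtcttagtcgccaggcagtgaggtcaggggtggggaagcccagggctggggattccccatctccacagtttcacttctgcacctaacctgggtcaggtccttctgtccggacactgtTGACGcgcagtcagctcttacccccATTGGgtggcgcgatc
H2-D1 (chr17:35262844-35263093, plus strand): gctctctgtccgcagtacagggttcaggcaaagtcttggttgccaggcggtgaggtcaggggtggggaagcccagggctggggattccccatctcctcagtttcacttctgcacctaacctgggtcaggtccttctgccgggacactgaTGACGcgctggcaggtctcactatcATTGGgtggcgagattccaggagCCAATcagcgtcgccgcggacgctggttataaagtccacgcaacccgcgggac
B2m (chr2:122147437-122147686, plus strand): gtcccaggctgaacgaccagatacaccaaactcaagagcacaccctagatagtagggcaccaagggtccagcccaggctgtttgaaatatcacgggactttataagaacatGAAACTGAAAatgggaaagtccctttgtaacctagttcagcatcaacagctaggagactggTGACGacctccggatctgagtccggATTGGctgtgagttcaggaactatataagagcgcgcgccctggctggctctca
Tap1 (chr17:34187306-34187555, plus strand): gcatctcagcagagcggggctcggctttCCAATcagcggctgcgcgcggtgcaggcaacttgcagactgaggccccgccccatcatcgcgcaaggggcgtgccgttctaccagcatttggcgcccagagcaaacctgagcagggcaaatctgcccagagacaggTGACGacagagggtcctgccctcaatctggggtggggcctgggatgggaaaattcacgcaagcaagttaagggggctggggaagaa
Psmb8 (chr17:34197945-34198194, plus strand): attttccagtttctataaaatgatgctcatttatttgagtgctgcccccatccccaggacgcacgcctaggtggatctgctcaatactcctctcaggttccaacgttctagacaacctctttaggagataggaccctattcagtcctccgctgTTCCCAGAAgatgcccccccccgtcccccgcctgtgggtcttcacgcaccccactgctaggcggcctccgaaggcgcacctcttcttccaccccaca

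In H2-K1, H2-D1 and B2m the CRE core was followed, after 20 bases, by a reversed CCAAT box. This pair started 41 bases before the start of H2-K1, 101 before that of H2-D1 and 78 before that of B2m. The spacing was chosen after the 3 windows were seen. It occurred in 30 of 32851 windows of the same length (0.0913%), from 26 of 27025 genes, and 1 of these was the class Ib heavy chain H2-M3. None of the other 5 members with a window (Tap1, Tapbp, Psmb8, Psmb9 and Psmb10) held the pair. Tap1 and Psmb9 share 225 bases of their windows, which hold a CCAAT box and a CRE core at another distance. An exact match to the interferon-stimulated core was found in 1 member, B2m (GAAACTGAAA, 139 to 130 bases before the start), against 2.98% of all windows. The gamma-activated site was found in 1, Psmb8 (TTCCCAGAA, 97 to 89 bases before the start), against 7.02%. Only exact matches were counted. The H2-K1 and H2-D1 windows both hold tttcacttc, which read on the other strand lacks a letter of the interferon-stimulated core. How many windows hold this shorter form was not counted. The CCAAT box was in 33.8% and the CRE core in 17.8% of all windows. Tap2 and Nlrc5 were not among the windows. These matches are letters in a window, and binding was not measured.

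Sham replicate 1 stood apart from sham replicates 2 and 3 in the genes described here. The calls of the members are therefore also given by the sham kidneys used, as are counts or medians of the pathway and interferon gene lists. It did not stand apart in injury: Havcr1 (kidney injury molecule 1) was at 2.81, 2.49 and 22.02 FPKM in sham replicates 1, 2 and 3, against 35.08 to 1358.77 in the clamped kidneys, and Lcn2 (the neutrophil and tubule injury protein lipocalin-2) at 11.49, 9.39 and 63.62, against 31.43 to 3921.19. The sham kidney nearest to the clamped ones in these 2 markers was replicate 3. FPKM count fragments per kilobase of a transcript, relative to the mapped fragments of the library. They summed to between 512453 and 554036 per kidney, with 16498 to 16904 genes above 0. The correlation between replicates ran from 0.984 to 0.9972, and no pair of kidneys held identical values.

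The class I chains were lower in every clamped kidney than in every sham kidney. H2-K1, a classical heavy chain, was at 383.73, 434.67 and 452.44 FPKM in sham replicates 1, 2 and 3, and at a lowest of 82.6, a median of 104.94 and a highest of 147.34 in the 24 clamped kidneys. H2-D1, the other classical heavy chain, was at 267.56, 364.41 and 386.76 FPKM in the sham kidneys and at 99.84, 112.765 and 166.68 (lowest, median, highest) after clamping. B2m, by far the most abundant of the 10 on this per-length scale, was at 1332.25, 2090.25 and 2127.4 FPKM in the sham kidneys and at 255.01, 322.305 and 382.45 after clamping. For each of the 3 genes the sham kidneys and the clamped kidneys did not overlap, and even replicate 1, the lowest sham kidney, was 3.66, 2.37 and 4.13 times the clamped median of H2-K1, H2-D1 and B2m.

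The transporter and tapasin genes separated the clamped kidneys from sham replicates 2 and 3 only. Tap1 was at 6.33, 68.88 and 47.96 FPKM in sham replicates 1, 2 and 3, against 2.64, 4.94 and 6.85 (lowest, median, highest) after clamping. Tap2, its partner in the pump, was at 9.45, 50.24 and 34.61 FPKM against 7.41, 10.16 and 12.8. Tapbp was at 35.58, 109.56 and 89.66 FPKM against 29.22, 41.185 and 48.4. Replicate 1 thus lay inside the clamped range for all 3, with 3, 15 and 23 of the 24 clamped kidneys at or above it, while replicates 2 and 3 lay above that range.

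The immunoproteasome genes showed the same division. Psmb8 was at 12.15, 114.88 and 83.69 FPKM in the sham kidneys and at 4.67, 7.095 and 12.03 (lowest, median, highest) after clamping, so that replicate 1 was only just above the highest clamped kidney. Psmb9 was at 4.75, 78.89 and 45.97 FPKM in the sham kidneys against 1.93, 3.5 and 5.87, with 1 clamped kidney above replicate 1. Psmb10 was at 10.7, 75.85 and 53.17 FPKM against 8.69, 16.945 and 23.56. Here 22 of the 24 clamped kidneys were at or above sham replicate 1. The means of replicates 2 and 3 were 13.99, 17.84 and 3.81 times the clamped medians of Psmb8, Psmb9 and Psmb10.

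Nlrc5, the transactivator, was the least abundant of the 10. It was at 0.8, 9.16 and 7.12 FPKM in sham replicates 1, 2 and 3, and at 0.34, 0.535 and 0.9 (lowest, median, highest) in the clamped kidneys. Replicate 1 was again inside the clamped range, with 3 clamped kidneys at or above it, and the mean of replicates 2 and 3 was 10.18 times replicate 1. For the 10 genes together, all 3 sham kidneys lay above all 24 clamped kidneys for 4 genes (H2-K1, H2-D1, B2m and, narrowly, Psmb8), a pattern held by 3.74% of the 18188 genes tested. Sham replicates 2 and 3 lay above all 24 for 10 of 10 (5.56% of genes tested). In 6 of the 10, replicates 2 and 3 lay above all 24 while replicate 1 did not, a joint pattern of 1.82% of genes tested.

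**Figure D1:**
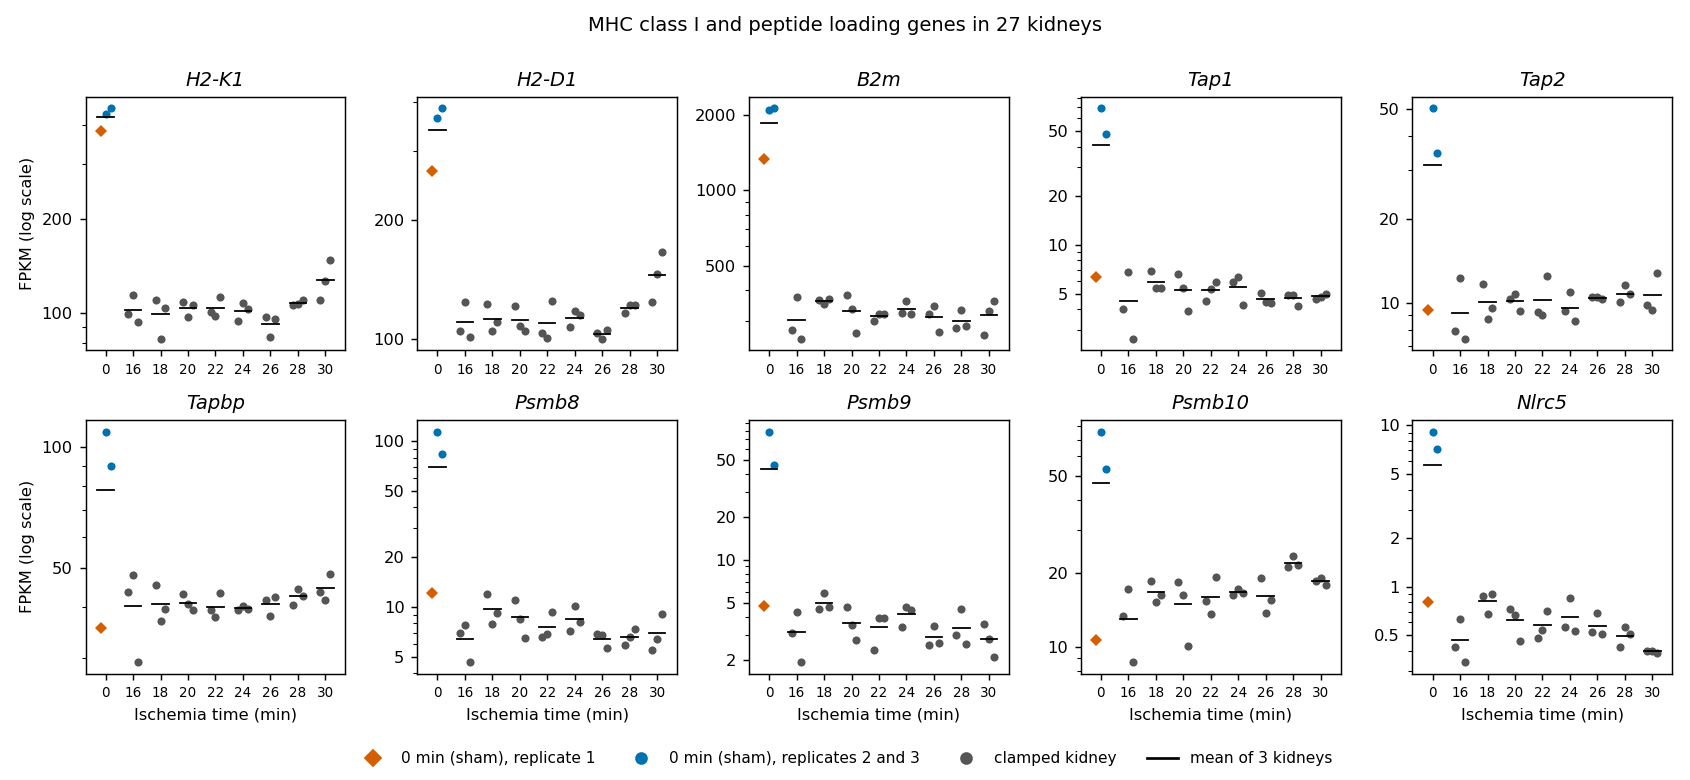
FPKM (log scale) of the 10 genes in each of the 27 kidneys against ischemia time in min, with a line for the mean of 3 kidneys, sham replicate 1 as an orange diamond and sham replicates 2 and 3 as blue points. The sham diamond is near the blue points for H2-K1 (383.73 against 434.67 and 452.44 FPKM) and among the clamped kidneys for Tap2 (9.45 FPKM, clamped 7.41 to 12.8).

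The first comparison asks whether clamping of any length went with another level than sham surgery. In limma, on log2(FPKM + 1) with Benjamini-Hochberg adjustment over all genes tested, 9 of the 10 genes were DEGs, lower after ischemia, for the mean of the 8 ischemia times against 0 min. DEGs had an adjusted p under 0.05 and changed by more than 1 on the log2 scale, and lower ones made up 1.71% of the genes tested. The median log2 fold change of the 10 genes was -2.01, and that of all genes tested was -0.0031. Because 1 FPKM was added before the log, the fold of a low gene such as Nlrc5 is understated.

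Among the class I chains, H2-K1 fell by 2.15 on the log2 scale (SE 0.09, adjusted p = 6.9e-12), H2-D1 by 1.60 (SE 0.11, adjusted p = 3.1e-09) and B2m by 2.62 (SE 0.13, adjusted p = 8.2e-11). The pump and loading genes had wider errors. Tap1 fell by 2.38 (SE 0.36, adjusted p = 2.7e-05) and Tap2 by 1.37 (SE 0.25, adjusted p = 2.0e-04). Tapbp passed the adjusted p of 8.9e-04 with a log2 fold change of -0.81 (SE 0.18) and was the 1 member under the fold limit. Psmb8 fell by 2.63 (SE 0.35, adjusted p = 6.3e-06), Psmb9 by 2.73 (SE 0.41, adjusted p = 2.6e-05) and Psmb10 by 1.15 (SE 0.31, adjusted p = 4.7e-03). Nlrc5 fell by 1.86 (SE 0.27, adjusted p = 1.6e-05). The standard errors of these 7 genes ran from 0.18 to 0.41, against 0.09 to 0.13 for the class I chains. For Tap1 the SD was 31.8 FPKM in the sham group and at most 2.09 FPKM in a clamped group. The fit takes 1 spread for all 9 groups. For these 7 genes it therefore understates the error of the sham mean, and their adjusted p-values are too small.

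The choice of sham kidney decided the call for 7 of the 10 genes. Against replicate 1 alone, a comparison chosen after the data were seen in which the spread comes from the clamped kidneys only, 3 of 10 were lower DEGs (1.5% of genes tested): H2-K1 at -1.99 (adjusted p = 6.8e-07), H2-D1 at -1.20 (adjusted p = 4.7e-05) and B2m at -2.13 (adjusted p = 1.4e-06) in limma. Psmb8 (-0.75, adjusted p = 0.039) and Nlrc5 (-0.31, adjusted p = 0.023) passed the test with less than a 2-fold change. Tap1 (-0.41), Psmb9 (-0.49), Tap2 (-0.03), Tapbp (0.10) and Psmb10 (0.46) did not pass. Against replicates 2 and 3 only, 10 of 10 were lower DEGs (1.84% of genes tested), with Psmb9 at -3.85, Psmb8 at -3.57, Tap1 at -3.37, Nlrc5 at -2.64 and Tapbp at -1.27. For H2-K1 the 2 choices differed little, -1.99 against -2.24.

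**Figure D2:**
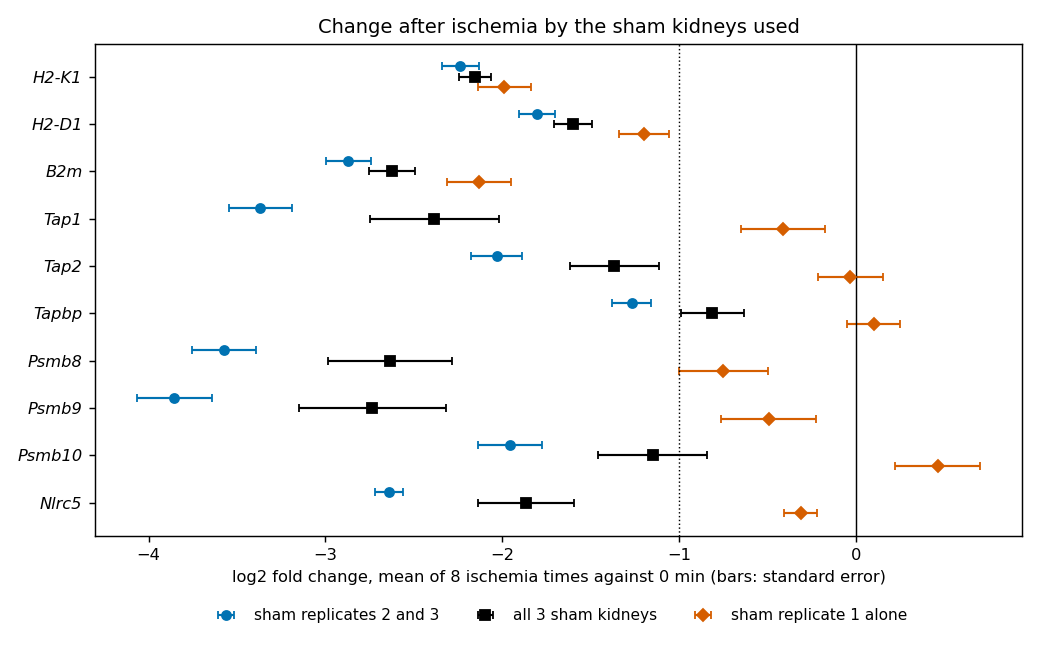
Log2 fold change of the mean of the 8 ischemia times against 0 min for each of the 10 genes, with standard errors as bars, using all 3 sham kidneys (black squares), replicates 2 and 3 (blue) or replicate 1 alone (orange). The dotted line marks a log2 fold change of -1. The 3 symbols lie close together for H2-K1 and apart for Psmb9 (-3.85, -2.73 and -0.49).

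Sham replicate 1 was placed on the log2 scale between the clamped kidneys (0%) and sham replicates 2 and 3 (100%), for genes in which these 2 differed by more than 1 on that scale. The class I chains had H2-D1 at 66.4%, B2m at 74.3% and H2-K1 at 88.9%. The other 7 members lay between -23.6% for Psmb10 and 21% for Psmb8. In between were Tapbp at -8.0%, Tap2 at 1.5%, Nlrc5 at 11.8%, Tap1 at 12.3% and Psmb9 at 12.8%. In this kidney the class I chains were therefore nearer to the other sham kidneys than to the clamped ones. H2-K1 was close to the other sham kidneys, and B2m and H2-D1 were clearly below them. The transactivator and loading genes were near the clamped kidneys. With 1 kidney there is no replicate error for this pattern and no test was made of it.

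Other genes were spread along this scale, some of them between its ends. The class Ib heavy chains, non-classical relatives of H2-K1, had 6 of 15 genes with such a gap, at 20.3% to 58.2%, with H2-T23 at 54.2%, H2-Q6 at 56.4% and H2-Q4 at 40.2%. The class II genes Cd74, H2-Aa, H2-Ab1 and H2-Eb1 lay between 61.4% and 102.1%, whereas their transactivator Ciita was at 13.6%. Irf1, a transcription factor that binds interferon-responsive promoters, was at 1.4%. The 11 type I interferon antiviral genes had a median of -5.2%, from -25.6% to 65.9%. Of 11 other interferon gamma-induced genes, 8 had such a gap, with a median of 12.6%, from -49.2% to 75%.

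**Figure D3:**
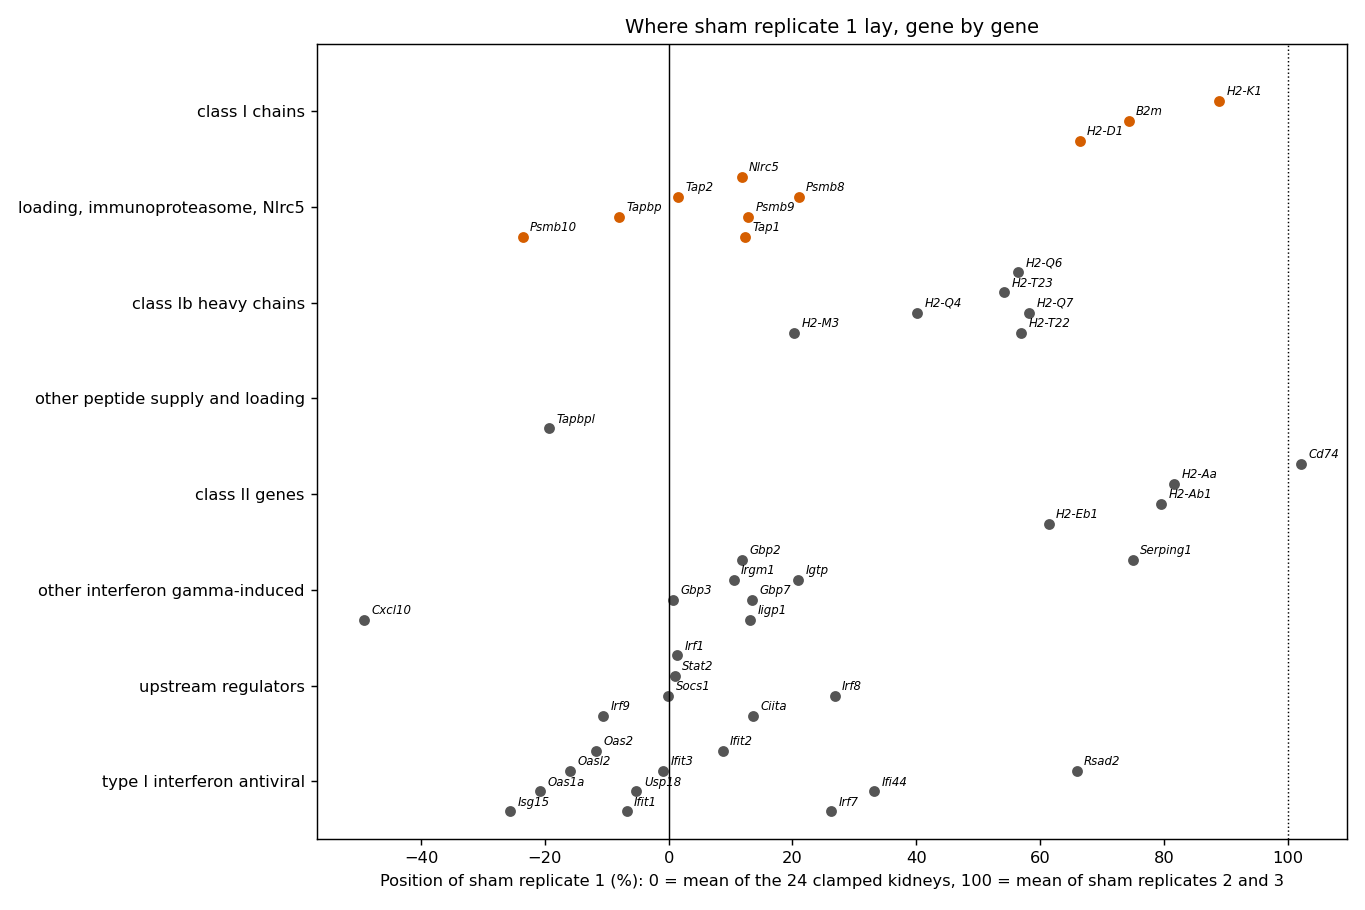
Position of sham replicate 1 on the log2 scale, as a percent of the way from the mean of the 24 clamped kidneys (0, solid line) to the mean of sham replicates 2 and 3 (100, dotted line), 1 point a gene, for genes with a gap above 1 log2 unit. The class I chains (66.4% to 88.9%) and class II genes (61.4% to 102.1%) lie to the right, and the loading, immunoproteasome and Nlrc5 genes (-23.6% to 21%) to the left.

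The design also compares each ischemia time with 0 min. Of the 10 genes, 9 were lower DEGs in limma at each time from 16 to 26 min, where lower DEGs were 0.979%, 1.09%, 0.962%, 1.2%, 1.15% and 1.61% of the genes tested in order of time. At 28 and 30 min 8 of 10 were, against 4.21% and 5.59%. All 8 times called the same 8 genes, every member but Tapbp and Psmb10 (0.709% of genes tested). Psmb10 had a log2 fold change of -0.78 (adjusted p = 0.13) at 28 min and of -0.99 at 30 min, which did not pass. These comparisons share the 3 sham kidneys, and when only the 2 groups compared were fitted, the count was 1 at 16 min (H2-K1), 4 at 28 min (H2-K1, H2-D1, B2m and Psmb8) and 3 (H2-K1, H2-D1 and B2m) at every other time.

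The 8 ischemia times were then set beside each other. From 16 to 26 min the mean of H2-K1 ran between 92.2 ± 7.43 FPKM (SD, n = 3, at 26 min) and 104 ± 6.09 (at 20 min), and it was 108 ± 2.29 at 28 min and 128 ± 18.9 at 30 min. H2-D1 followed the same order at its ends, with 103 ± 2.65 FPKM at 26 min, 119.9 ± 3.31 at 28 min and 146 ± 21.4 at 30 min. B2m had no such order, with 300.3 ± 27.9 FPKM at 28 min as the lowest and 361 ± 9.38 at 18 min as the highest mean. For H2-K1 and H2-D1 the ranges of the groups from 16 to 24 min all overlapped each other. Tap1 means lay between 4.48 ± 2.09 and 5.89 ± 0.835 FPKM and Tapbp means between 39.8 ± 0.496 and 44.6 ± 3.43. Psmb10 was lowest at 16 min (13.1 ± 4.27 FPKM) and highest at 28 min (22.2 ± 1.25). Nlrc5 was highest at 18 min (0.82 ± 0.122 FPKM) and lowest at 30 min (0.397 ± 0.00577).

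At the step from 26 to 28 min, 0 of the 10 genes were called by limma in either direction (lower DEGs 1.06% and higher DEGs 0.44% of genes tested), and 0 had an unadjusted p under 0.05. From 28 to 30 min 0 were called as well (0.649% and 0.401%), and 2 had an unadjusted p under 0.05: H2-K1 at 0.33 (SE 0.12, adjusted p = 0.076) and H2-D1 at 0.37 (SE 0.14, adjusted p = 0.096). A fitted slope over the 24 kidneys of 16 to 30 min gave 0 DEGs (lower DEGs 2.98%, higher DEGs 1.73%), with 3 members at an unadjusted p under 0.05. By adjusted p alone, 2 of 10 rose and 0 fell, against 24.3% of genes tested rising and 19% falling. Over these 14 min H2-D1 rose by 0.34 (SE 0.11, adjusted p = 0.019) and Psmb10 by 0.47 (SE 0.15, adjusted p = 0.014) on the log2 scale. H2-K1 had 0.26 (SE 0.11, adjusted p = 0.070), B2m 0.02 (adjusted p = 0.92) and Psmb9 -0.29 (adjusted p = 0.22).

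The H2-D1 slope rested on the 30 min kidneys. Without the 30 min kidneys, an added alternative, the log2 change fitted over 16 to 28 min was 0.07 (adjusted p = 0.60) for H2-D1 and 0.54 (adjusted p = 0.049) for Psmb10. Over 16 to 26 min it was -0.07 (adjusted p = 0.88) and 0.32 (adjusted p = 0.75). The H2-D1 slope also missed the threshold without 30 min replicate 2 (adjusted p = 0.059) or replicate 3 (adjusted p = 0.062), and with weights for each kidney (0.22, adjusted p = 0.083). That of Psmb10 missed it without 16 min replicate 3 (adjusted p = 0.050). The endothelial markers, a source of class I, moved in the same direction. Their summed level was 83.81 to 129.5 FPKM at 30 min against 63.16 to 76.37 at 28 min. The neutrophil markers did so too, at 16.5 to 24.46 against 11.68 to 14.87. NK cell markers were lower at 30 min (0.07 to 0.29 against 0.33 to 0.39). The sums of the general leukocyte, T cell, B cell, macrophage and dendritic cell, and podocyte markers overlapped between these times. The part of these cells in the result was not tested. The proximal tubule markers summed to 656.5 to 776.5 FPKM at 30 min and 1119 to 1238 at 28 min, against 1755 to 3183 from 16 to 26 min. In a whole kidney, fewer cells of a type and less RNA per cell cannot be told apart.

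Each immunosubunit was set against the constitutive subunit it replaces, in the same kidney, so that the scaling between kidneys drops out. Psmb8 stood at 10.05%, 95.92% and 63.74% of Psmb5 FPKM in sham replicates 1, 2 and 3, and at 2.34%, 3.94% and 6.08% (lowest, median, highest) after clamping. Psmb9 stood at 4.38%, 70.04% and 37.02% of Psmb6, against 1.27%, 2.29% and 3.79%. For both ratios all 24 clamped kidneys were below all 3 sham kidneys. The mean log2 ratio was 3.38 lower for Psmb8 and 3.37 lower for Psmb9 than in sham, each with an exact two-sided permutation p of 0.0006838, the smallest that 3 against 24 kidneys can give (adjusted over the 3 ratios, 0.001026).

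Psmb10 stood at 8.57%, 66.47% and 46.44% of Psmb7 in the sham kidneys and at 6.23%, 12.24% and 15.84% after clamping. Only 2 of the 24 clamped kidneys were below sham replicate 1. The log2 difference was -1.32 (exact permutation p = 0.01573, adjusted 0.01573), and it missed the threshold without sham replicate 2 (-0.738, adjusted 0.1415) or replicate 3 (-0.997, adjusted 0.1415). The denominators moved the other way. All 4 constitutive genes listed (Psmb5, Psmb6, Psmb7 and the assembly factor Pomp) were higher after ischemia by the adjusted p of limma, as were 21.4% of all genes tested. Psmb5 rose by 0.66 and Psmb7 by 0.23 on the log2 scale, and none of the 4 passed the fold limit. Against sham replicate 1 alone the median log2 fold change of the 4 was 0.47. In sham replicates 1, 2 and 3 Psmb5 was at 120.86, 119.77 and 131.29 FPKM, and replicate 1 lay between the other two.

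**Figure D4:**
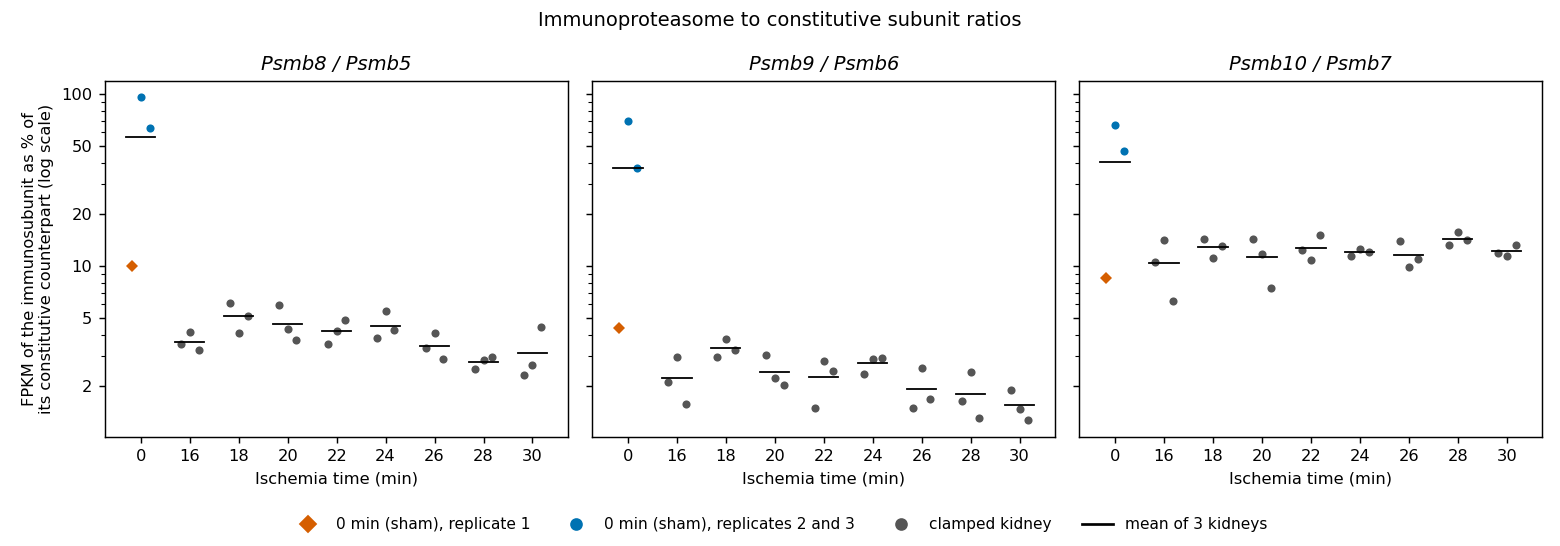
FPKM of Psmb8, Psmb9 and Psmb10 as a percent of Psmb5, Psmb6 and Psmb7 in each kidney (log scale) against ischemia time in min, with a line for the mean of 3 kidneys. Sham replicates 2 and 3 lie far above the clamped kidneys, and sham replicate 1 (orange) lies just above them for Psmb8 and Psmb9 and below most of them for Psmb10 (8.57% against a clamped median of 12.24%).

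The remaining genes of the pathway were described from lists. Of 15 class Ib heavy chains, 9 were lower, 1 was higher and 5 did not pass the adjusted p of limma (23.3% of all genes tested were lower and 21.4% higher by this rule), with 5 lower DEGs and a median log2 fold change of -0.46. Against sham replicate 1 alone 4 were lower and 0 higher (all genes tested: 12.1% lower, 10.3% higher), and against replicates 2 and 3 only 10 were lower and 1 higher (18.7% lower, 18% higher). H2-T23, which presents leader peptides of other class I chains, fell by 1.94, H2-Q4 by 1.61 and H2-Q6 by 1.47. Of 15 other genes of peptide supply and loading, 3 were lower, 3 were higher and 9 did not pass, with a median of -0.03, and against replicate 1 alone 0 were lower and 4 higher. The 3 lower ones were Tapbpl, a tapasin relative that edits bound peptides (-1.02), Erap1, an aminopeptidase that trims them (-0.69), and Psme1, a subunit of the interferon-inducible proteasome activator (-0.61). Tapbpl behaved as tapasin did, at 6.64, 36.88 and 25.62 FPKM in the sham kidneys and 7.63 to 11.24 after clamping.

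Of 20 regulators, 10 were lower, 4 were higher and 6 did not pass the adjusted p of limma. Their median log2 fold change was -0.13. Among all genes tested, 23.3% were lower and 21.4% higher by this rule, and 1.71% were lower DEGs. The count of 4 higher is near the share of all genes. The 4 higher ones were the interferon gamma receptor chains Ifngr1 (0.38) and Ifngr2 (0.84), the kinase Jak1 (0.17) and the NF-kappaB subunit Rela (0.47). Ciita fell by 2.33 and Irf1 by 1.91. Irf1 was at 8.82, 76.58 and 63.94 FPKM in sham replicates 1, 2 and 3, against 5.06 to 15 after clamping. Against replicate 1 alone the median log2 fold change of the 20 was -0.03. Of 15 interferon gamma-induced genes 13 were lower and 0 higher (11 lower DEGs, median -2.68), led by the immunity-related GTPases Iigp1 (-4.85) and Igtp (-4.29) and the class II invariant chain Cd74 (-3.73). Against replicate 1 alone the median of the 15 was -0.66, with genes of both kinds. Cd74 was at 673.6 FPKM in replicate 1, against 21.06 to 87.71 after clamping, and Gbp3 at 3.9, against 1.65 to 6.7. Against replicates 2 and 3 only the median was -3.36, with all 15 lower (18.7% of all genes tested). All 11 type I interferon antiviral genes in the table were lower, with Irf7, their amplifying transcription factor, at -2.87, Ifit1 at -2.03 and Ifit3 at -1.91. Replicate 1 was at or below the highest clamped kidney in 9 of these 11. That was also so for 19 of the 20 regulators, so the count is not particular to the antiviral genes. The share over all genes was not counted. Ifit1 was at 1.92 FPKM in replicate 1 and at 1.03 to 4.68 after clamping. Against replicate 1 alone the median log2 fold change of the 11 was 0.11, but some were above the clamped range there. Rsad2 was at 11.29 FPKM in replicate 1, against 3.57 to 7.85 after clamping, and Irf7 at 18.74, against 4.59 to 18.04. Ifng itself was at 0.11, 0.1 and 0.05 FPKM in the sham kidneys and at a median of 0 after clamping, close to the rounding of the table.

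The summed markers of T and NK cells were not low in sham replicate 1. The 7 T cell markers in the table summed to 6.45, 2.68 and 1.97 FPKM in sham replicates 1, 2 and 3, against 1.32 to 5.2 after clamping, and the 7 NK cell markers to 3.15, 1.31 and 2.18, against 0.07 to 1.97. Replicate 1 was thus the highest sham kidney in both sums, and Cd3e was at 0.58, 0 and 0.04 FPKM. The NK cell markers were mixed and at low levels. Nkg7 (1.32, 0.32 and 0.79 FPKM), Gzma and Gzmb were highest in replicate 1. Ncr1 (0, 0.04 and 0.21), Klrk1 and Prf1 were highest in replicate 3. The 3 general leukocyte markers summed to 14.04, 12.76 and 13.31 FPKM against 10.28 to 24.93, the 8 macrophage and dendritic cell markers to 54.09, 59.59 and 64.47 against 53.22 to 92.3, and the 4 B cell markers to 1.07, 0.89 and 0.69 against 0.48 to 1.75. Replicate 1 was the lowest sham kidney in the macrophage and dendritic cell sum and in the 4 neutrophil markers (2.84, 7.75 and 8.24 FPKM, against 2.36 to 24.46). Within the macrophage and dendritic cell list, Cd68, C1qa, C1qb, Itgax and Xcr1 were lowest in replicate 1, but Adgre1, Csf1r and Flt3 were highest there. That sum also mixes directions after clamping: Cd68 rose by 2.32 on the log2 scale, while Csf1r fell by 0.77 and Xcr1 by 0.21. Endothelial markers summed to 68, 62.65 and 75.21 FPKM in the sham kidneys and 58.56 to 129.5 after clamping. The part of these cells in the fall of the class I genes was not tested. The proximal tubule markers, which define the most abundant epithelium of the kidney, summed to 3028, 2933 and 2678 FPKM in the sham kidneys.

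The genes most like the 10 were found by Pearson correlation with their mean standardized level, over the 12336 genes with a mean of at least 1 FPKM. Over the 27 kidneys the 10 highest were Ifit2 (r = 0.98), Ifi27, H2-Q4, Gm4841, Parp14, Gbp10, Cd274, Gm12250, Parp10 and Ciita (r = 0.96). Over the 24 clamped kidneys alone r ranged from 0.05 to 0.78 for these 10 genes. Ifit2 kept 0.68, Ifi27 0.65, Parp10 0.61 and Parp14 0.56. Gbp10, at 3.6, 78.67 and 42.99 FPKM in sham replicates 1, 2 and 3, had r = 0.05, and Cd274, which encodes PD-L1, had r = 0.21. Over those 24 kidneys the highest were Csnk1g2 (r = 0.84), Tgfb1 (r = 0.82), Emp3, H2-Q4 (r = 0.78), Mpdu1, Fkbp10, Arf5, Mob2, Gpihbp1 and Timp1 (r = 0.73). H2-Q4 was the only gene in both lists. Apart from H2-Q4 and Mob2, the genes highest over the 24 kidneys had a clamped median above every sham kidney, whereas the members fell. Tgfb1 was at 6.59, 5.33 and 8.46 FPKM in the sham kidneys against a clamped median of 15.965. The members did not move as 1 over the 24 kidneys: H2-K1 had r = 0.93 with H2-D1 and -0.37 with Nlrc5. The kidneys share ischemia times and the measure is a description.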

How the data were processed

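Left kidneys of 27 mice (9 ischemia times, 3 mice each) had been sequenced as total RNA on a DNBSEQ platform. The authors deposited FPKM per gene symbol, rounded to 2 decimals; the submitters' processing notes name Bowtie2, RSEM, DESeq2 and GRCm38.p6, without versions or settings. Counts were not used here, so depth is judged from steps between low values, which gave a relative depth of 0.976 to 1.06 over 1220 genes.

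Values were taken as log2(FPKM + 1), quantile normalized and fitted in limma 3.58.1 (R 4.3.3), 1 mean for each group, over 18188 genes (those with a value above 0 in 3 or more kidneys). Adjusted p-values are Benjamini-Hochberg over all of them. Ratios were compared by exact permutation (scipy 1.17.1). The fit was tested on simulated data in which each gene had the same spread in all groups. That does not test it for members whose sham kidneys spread more than the clamped ones. All 10 members are named. Other lists are given by counts, with the 3 largest changes for all ischemia times (1 such gene is not reported here); list genes named beyond these were chosen after their values were seen. Members and lists were chosen with earlier results of these data known. Same-numbered kidneys deviated with a median correlation of -0.00875 (25 of 108 pairs over 0.1), so no general pairing by replicate number was seen. Whether some same-numbered kidneys shared a day or batch cannot be told from this median. Alternatives were another pseudocount, filter, scaling and weighting, fits of only the groups compared, a block for replicate number, and each replicate left out in turn. For the ratios, only sham replicates were left out.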

Additional observations from a re-analysis of the deposited data

Results flagged for a closer look

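Among the clamped kidneys, 2 of the 10 genes had a limma slope over 16 to 30 min that passed the adjusted p, and both were below a 2-fold change. By the same rule 24.3% of all genes tested rose. The log2 change over that span was 0.34 for H2-D1 and 0.47 for Psmb10, where the mean of all ischemia times had fallen by 1.60 and by 1.15 relative to 0 min. Without the 30 min kidneys H2-D1 had 0.07 (adjusted p = 0.60), and over 16 to 26 min Psmb10 had 0.32 (adjusted p = 0.75). No step tested between neighbouring times, 26 to 28 or 28 to 30 min, called either gene.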

How the results depend on the processing

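The fall after ischemia kept its direction in the 10 genes under every alternative but 1, the comparison with 0 min replicate 1 alone, which was added after the data were seen. That comparison gave 3 lower DEGs for all ischemia times and at each time from 16 to 28 min, and 2 (H2-K1 and B2m) at 30 min. It reversed Psmb10 to 0.462 for all ischemia times and to 0.11, 0.494, 0.314, 0.429, 0.478 and 0.418 at 16, 18, 20, 22, 24 and 26 min, and Tap2 to 0.034 and 0.043 at 28 and 30 min, none passing the test. Tapbp, a DEG at no time, and Psmb10 at 28 and 30 min were also above 0 there. Fitting only the groups compared gave 1 lower DEG at 16 min, 4 at 28 min and 3 at each other time. With no fold limit the slope over 16 to 30 min called 2 genes in place of 0, and weights for each kidney left H2-D1 short of it (adjusted p = 0.083). Leaving out 1 kidney gave 7 to 10 lower DEGs for all ischemia times and at each time from 18 to 30 min, and 8 to 10 at 16 min. The lowest, 7, came without 0 min replicate 2, and 10 without 0 min replicate 1. It gave 0 to 0 for 28 against 26 min, 30 against 28 min and the slope. For the ratios only the sham kidneys were left out in turn. The log2 difference then ran from -2.216 to -0.738 for Psmb10 to Psmb7. It ran from -4.362 to -2.735 for Psmb8 to Psmb5 and from -4.547 to -2.548 for Psmb9 to Psmb6. The replicate block, although no general pairing by number was seen, gave 9 lower DEGs for all ischemia times and 8 or 9 at each time. It gave 0 for the steps and the slope. Of 27 kidneys, 8 were most alike to a kidney of their own number. Over all genes tested, 311 were lower and 400 higher DEGs for all ischemia times, against 624 and 784 with a pseudocount of 0.1 FPKM and 305 and 634 with FPKM rescaled to a constant sum. Fitting only the groups compared left 5 of 178 lower DEGs at 16 min. A filter of 1 FPKM left out Nlrc5. Read depth is not in the values, and single steps of 0.01 FPKM limit Nlrc5 and Ifng most.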
